A study of Mus musculus with 6 samples.

Results

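The Ugt2 and Ugt3 genes of the mouse encode UDP-glycosyltransferases, and 10 of them were followed here in liver. The files listed 47256 gene names that occur once in each mouse, and the 10 entries named Ugt2b1, Ugt2b5, Ugt2b34, Ugt2b35, Ugt2b36, Ugt2b37, Ugt2b38, Ugt2a3, Ugt3a1 and Ugt3a2 were taken from these by name. They form 8 Ugt2 genes and 2 Ugt3 genes. All 10 had an estimate in all 6 mice and were among the 18628 genes tested.

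UDP-glucuronosyltransferases sit in the membrane of the endoplasmic reticulum and join glucuronic acid, carried by UDP-glucuronate, to small fat-soluble molecules. The products, called glucuronides, dissolve in water and leave the hepatocyte for bile or blood. Enzymes of the Ugt2b group conjugate steroid hormones, bile acids, fatty acids, phenols and opioid drugs, with substrate ranges that overlap widely between isoforms, and Ugt2a3 is active on bile acids. The human relatives of the Ugt3 enzymes use other sugar donors, such as UDP-N-acetylglucosamine and UDP-glucose. Several genes of the group differ in expression between male and female rodent liver under the control of the growth hormone rhythm.

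RNA-Seq was performed on frozen, unfixed liver of 3 inbred laboratory mice (C57BL/6) and 3 outbred house mice caught in the wild, 1 library per mouse. The laboratory mice were males aged 17 to 18 weeks that were killed on arrival from a breeder. Wild mouse 1 was male and wild mice 2 and 3 were female, all adults of unstated age that had been trapped at 2 places and kept in captivity for 3 months. Strain, age, rearing and source go together with the group here and cannot be told apart. Sex does so in part, since both females were wild. Trapping place varied among the wild mice, with wild mouse 3 from another place than wild mice 1 and 2. No mouse carried an engineered allele or received a treatment.

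Expression was deposited as FPKM, fragments per gene corrected for the length of the transcript and the size of the library, and as zFPKM, which places log2 FPKM on a scale of its own in each mouse by taking off the mode and dividing by a fitted SD. Depth is unknown because no counts were used. Laboratory mouse 3 and wild mouse 1 stood apart in this scaling, with modes of 2.12 and 2.51 in log2 FPKM against 0.491 to 1.77 in the other 4 mice. On log2(FPKM + 0.1) the median tested gene was 0.47 higher in the wild mice, and a rise of that size in FPKM is therefore shared by the typical gene. Of 6 hepatocyte markers, 4 had a usable estimate, and their summed FPKM was 28994 to 40041 in the laboratory mice and 17005 to 18405 in the wild mice, with Apoa1, Ttr and Serpina1c lower and Tat higher in zFPKM. Markers of kidney tubule, a tissue that also expresses UGT genes, summed to at most 0.0631 FPKM in any mouse, and 3 of 5 were listed at 0 in all 6 mice. Among 5 markers of intestinal epithelium Cdx2 was listed at 0 in every mouse, and the sum of 25.0 to 48.0 FPKM came mostly from Fabp2, with overlapping groups. Bile duct markers summed to 29.7 to 64.6 FPKM in the laboratory mice and 12.2 to 27.6 in the wild mice, with Spp1 called lower and 0 of 5 called higher in zFPKM. Stellate cell markers summed to 25.8 to 40.3 and 70.2 to 127, mostly Dcn, but 0 of 4 were called higher and Col1a1 was called lower, with 2.29 to 5.28 FPKM in laboratory and 0.545 to 1.85 in wild mice. The part of these cell types in the differences below was not tested, and in bulk tissue fewer cells of a type and less RNA per cell cannot be told apart.

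The 8 Ugt2 genes lie in one cluster on chromosome 5 of GRCm38, from 86889770 to 87424203, which spans 534 kb. In map order they are Ugt2b34 (86889770 to 86906937), Ugt2b1 (86916639 to 86926503), Ugt2b35 (87000860 to 87013274), Ugt2b36 (87065927 to 87092555), Ugt2b5 (87124946 to 87140340), Ugt2b37 (87240492 to 87254788), Ugt2a3 (87324972 to 87337195) and Ugt2b38 (87409939 to 87424203). Only Ugt2b35 among these 8 is on the plus strand. The Ugt3 genes are neighbours on chromosome 15, both on the plus strand, with Ugt3a1 from 9279822 to 9315038 and Ugt3a2 from 9335551 to 9370955. Each Ugt2 transcript has 6 exons and each Ugt3 transcript 7, over coding sequences of 1572 to 1605 bases.

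Coding sequences were closest between Ugt2b5 and Ugt2b38, with 97.05% identity, and the third of this group, Ugt2b37, had 94.66% identity to Ugt2b5 and 94.1% to Ugt2b38. Ugt3a1 and Ugt3a2 were 93.26% identical, and the lowest identity of any pair was 51.74%, between Ugt2a3 and Ugt3a1. The reads were 100 bases long, and of the 100-base windows of the Ugt2b5 transcript 434 of 1759 (24.7%) also occurred in another gene without a mismatch, as did 434 of 1792 (24.2%) in Ugt2b38 and 1.06% in Ugt2b37. With 2 mismatches allowed, 51.4% of the windows of Ugt2b5, 44.6% of Ugt2b38, 28.4% of Ugt2b37, 20.2% of Ugt3a1 and 19.4% of Ugt3a2 matched another member. How the authors' pipeline shared such reads out is not given in the sources used here, so the values of Ugt2b5, Ugt2b37 and Ugt2b38, and to a lesser degree those of Ugt3a1 and Ugt3a2, are uncertain. Ugt2b1, Ugt2b35 and Ugt2b36 had no such window, Ugt2b34 had 1.69% and Ugt2a3 2.48%. The windows were taken from the reference, which is a C57BL/6J genome, and how many reads of the wild mice mismatched it was not tested.

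**Figure D1:**
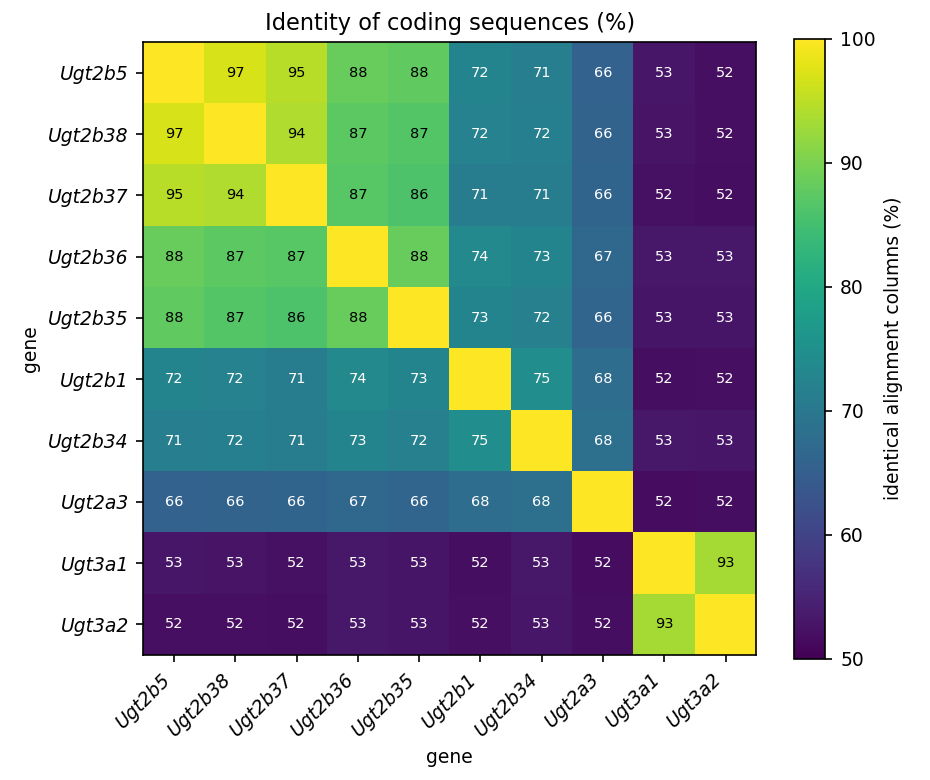
Identity of the coding sequences of the 10 genes, as the percentage of identical alignment columns (colour and printed number). Ugt2b5, Ugt2b38 and Ugt2b37 form one block of 94% to 97% and Ugt3a1 and Ugt3a2 another of 93%, while Ugt2a3 stays at or below 68.5% to every other gene.

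RefSeq promoters (250 bases before to 50 after the start of transcription, GRCm38.p6) were given for 9 of the 10 genes, all but Ugt3a2, and were compared because the Ugt2b genes share close ancestry but not level. The 60 bases before the start of Ugt2b5 were placed, without gaps, where they differed at the fewest positions from each other promoter. They are shown for the closest copies, for the abundant Ugt2b36 and for Ugt2b1, the one Ugt2b gene lower in FPKM in every wild mouse. Capitals mark the bases that differ from Ugt2b5.
Ugt2b5, chr5:87140341-87140400, minus strand: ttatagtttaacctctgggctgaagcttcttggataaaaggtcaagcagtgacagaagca
Ugt2b37, chr5:87254806-87254865, minus strand: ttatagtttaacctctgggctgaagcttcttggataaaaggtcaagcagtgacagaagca
Ugt2b38, chr5:87424207-87424266, minus strand: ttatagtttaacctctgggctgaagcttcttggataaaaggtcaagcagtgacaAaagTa
Ugt2b36, chr5:87092559-87092618, minus strand: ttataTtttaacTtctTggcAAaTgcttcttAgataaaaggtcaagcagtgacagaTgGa
Ugt2b1, chr5:86926532-86926591, minus strand: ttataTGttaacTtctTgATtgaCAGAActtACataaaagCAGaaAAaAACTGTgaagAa

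Ugt2b37 differed from Ugt2b5 at 0 of these 60 positions, Ugt2b38 at 2, Ugt2b36 at 9 and Ugt2b1 at 25. The stretch begins 60 bases before the start in Ugt2b5, 77 before it in Ugt2b37 and 63 before it in Ugt2b38 and Ugt2b36. With the same 60 bases, Ugt2b5 and Ugt2b37 stood at a mean of 365 and 4.72 FPKM in the laboratory mice, the highest and the lowest level of the 10 genes. In the other members with a promoter the best placement differed at 28 to 35 positions. These included Ugt3a1 of the other family, at 30 positions, so placements of this kind do not show common descent of the stretch. Promoters of close copies share ancestry, so their shared letters are not independent of each other. All letters are those of the reference and were not read from the wild mice. Neither TTCNNNGAA, the letters bound by STAT5 (8.3% of all 32851 promoters, both strands), nor CAAAGTCCA, bound by HNF4 (0.475%), was in any of the 9 promoters. That says only that these letters are not in these windows.

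To ask how expression differed between wild and laboratory livers, each gene was compared in FPKM and zFPKM. In FPKM all 3 wild mice lay above all 3 laboratory mice for 7 of the 10 genes, beside 43.7% of all tested genes, and below them for 1, Ugt2b1, beside 12.1%. Ugt2b5 and Ugt3a2 overlapped. With limma on zFPKM, 6 of the 10 genes passed at an adjusted p of 0.05 (Benjamini-Hochberg over all tested genes), where 14.5% of all genes did. Ugt2b35, Ugt2b37, Ugt2b38 and Ugt3a1 were higher in the wild mice (7.28% of all genes), and Ugt2b1 and Ugt2b5 were lower (7.17% of all genes). Ugt2b34, Ugt2b36, Ugt2a3 and Ugt3a2 did not pass. Leaving out any 1 of the 6 mice, in turn, gave 1 to 2 members higher and 1 to 3 lower, with 1 higher without wild mouse 3 and 2 in each other case, and 1 lower without laboratory mouse 1, wild mouse 2 or wild mouse 3. The split depends on the scale, since on log2(FPKM + 0.1) the same test called 7 members higher and 0 lower, beside 38.0% and 8.19% of all genes. With each mouse's median set to 0 on that scale it called 3 higher and 2 lower, beside 18.6% and 28.6%.

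**Figure D2:**
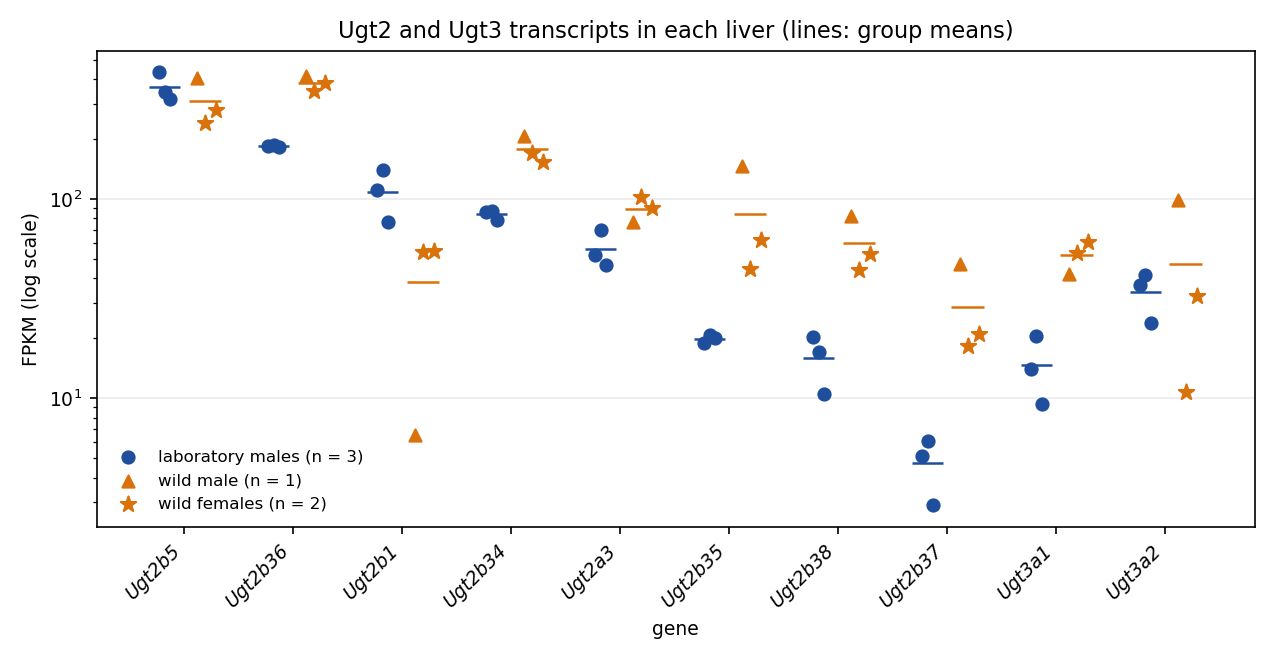
FPKM of the 10 genes in each of the 6 mice on a log axis, with laboratory males as circles, the wild male as a triangle, wild females as stars and a line at each group mean (n = 3). All wild mice lie above all laboratory mice for 7 genes, Ugt2b1 shows the reverse with the wild male lowest at 6.57, and Ugt2b5 and Ugt3a2 overlap.

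In the laboratory mice the order of mean FPKM was Ugt2b5, Ugt2b36, Ugt2b1, Ugt2b34, Ugt2a3, Ugt3a2, Ugt2b35, Ugt2b38, Ugt3a1 and Ugt2b37. Neighbours in this order whose ranges overlapped were Ugt2b1 and Ugt2b34, Ugt2b35 and Ugt2b38, and Ugt2b38 and Ugt3a1. In the wild mice the order was Ugt2b36, Ugt2b5, Ugt2b34, Ugt2a3, Ugt2b35, Ugt2b38, Ugt3a1, Ugt3a2, Ugt2b1 and Ugt2b37, and each neighbouring pair overlapped except Ugt2b5 with Ugt2b34 and Ugt2b34 with Ugt2a3. Ugt2b5 ranked 1 of the 10 in each laboratory mouse and 2 in each wild mouse, where Ugt2b36 ranked 1. Ugt2b5 and Ugt2b36 stood between rank 141 and rank 418 of all genes in every mouse.

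Ugt2b1, whose rat counterpart conjugates steroids and bisphenol A, was at 110.3, 139 and 76.4 FPKM in laboratory mice 1 to 3. The wild male had 6.57 and the wild females 54.1 and 54.6. The groups did not overlap, and the wild male was far below the other 5 mice. Group means were 109 ± 31.4 for the laboratory mice and 38.4 ± 27.6 for the wild mice (SD, n = 3 each), 2.83 times as high in the former, while the typical gene moved the other way. The zFPKM difference was -0.953 (standard error 0.135, adjusted p = 2.09e-10, limma). That standard error follows a variance trend over all genes, whereas the SD of zFPKM was 0.233 in the laboratory and 0.768 in the wild mice. Without the trend the standard error was 0.376 and the call was lost (adjusted p = 0.202, limma). With the trend the call held without any 1 mouse, and the difference was smallest without the wild male, at -0.51 (adjusted p = 0.00615). On log2(FPKM + 0.1) the fall was 1.96 with an adjusted p of 0.0742 by limma, and 2.70 with an adjusted p of 0.0169 with each mouse's median set to 0.

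Ugt2b5, the isoform with the most transcript in the laboratory livers, had an FPKM of 432, 346 and 317 there. Wild mice 1 to 3 had 405, 239 and 281. The ranges overlapped, with the wild male level with the laboratory mice and both females below them. The means were 365 ± 59.6 and 308 ± 86.4 (SD, n = 3 each), a two-sided exact permutation test of log2(FPKM + 0.1) gave p = 0.4, while the zFPKM difference was -0.341 (standard error 0.105, adjusted p = 0.0121, limma). The zFPKM call was lost without laboratory mouse 1 (adjusted p = 0.16), without wild mouse 2 (0.132) and without wild mouse 3 (0.0673).

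Ugt2b37 and Ugt2b38, the copies nearest to Ugt2b5 in sequence, were low in the laboratory mice. For Ugt2b37 the FPKM was 5.13, 6.12 and 2.92 in the laboratory males, against 47.3, 18.3 and 20.9 in the wild animals. For Ugt2b38 it was 20.4, 17.01 and 10.5 against 82.2, 44.2 and 53.1. In both genes the groups were separate, the wild male was highest and laboratory mouse 3 lowest. The wild mean was 6.10 times the laboratory mean for Ugt2b37, the largest ratio of the 10 genes, and 3.74 times for Ugt2b38. Ugt2b37 differed by 0.665 in zFPKM (standard error 0.181, adjusted p = 0.00352, limma) and kept its call without any 1 mouse, although the difference was 0.39 without laboratory mouse 3. Without the variance trend its standard error was 0.269 and the call was lost (adjusted p = 0.211, limma). A floor of -5 lost it as well (adjusted p = 0.0505, limma). Ugt2b38 differed by 0.435 (standard error 0.149, adjusted p = 0.0285, limma), and the call was lost without any 1 mouse other than laboratory mouse 1, with a difference of 0.218 and an adjusted p of 0.168 without laboratory mouse 3 and adjusted p of 0.0564 to 0.173 without laboratory mouse 2 or 1 of the wild mice.

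Ugt2b35, the one gene of the cluster transcribed in the opposite direction, was even among the laboratory mice, with an FPKM of 19.0, 20.7 and 19.97. The wild male had 146 and the wild females 44.4 and 62.1. Each wild mouse was thus above each laboratory mouse, the male by the widest margin. The means were 19.9 ± 0.835 and 84.0 ± 54.0 (SD, n = 3 each), a ratio of 4.23, and the zFPKM difference was 0.422 (standard error 0.142, adjusted p = 0.0254, limma). The call was lost without laboratory mouse 1, laboratory mouse 2, wild mouse 1 or wild mouse 3 (adjusted p = 0.0527, 0.0653, 0.171 and 0.121).

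The FPKM of Ugt2b36 was 183, 186 and 182 in the laboratory males and 414, 347 and 380.3 in the wild animals. Ugt2b34 had 86.4, 87.1 and 78.1 against 208, 170.2 and 154. Neither gene had overlapping groups. Ugt2b36 had the smallest coefficient of variation in FPKM of the 10 genes in each group, 1.12% in laboratory males and 8.83% in wild animals, and that of Ugt2b34 was 5.98% and 15.6%. Wild means were 2.07 and 2.11 times the laboratory means, and 0.58 and 0.60 higher on the log2 scale after the shift of the median gene was taken off. In zFPKM the differences of 0.107 (adjusted p = 0.592) and 0.121 (adjusted p = 0.582) did not pass in limma, while on log2(FPKM + 0.1) those of 1.05 (adjusted p = 0.000753) and 1.07 (adjusted p = 0.00113) did.

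For Ugt2a3 the laboratory males had 52.6, 69.7 and 46.5 FPKM, and the wild animals 76.2, 102 and 90.0. The groups did not overlap, although the wild male was only slightly above laboratory mouse 2. The ratio of the means was 1.59, which on the log2 scale was 0.21 above the shift of the median gene, and the zFPKM difference was -0.0149 (standard error 0.129, adjusted p = 0.963, limma). The sign turned on log2(FPKM + 0.1), at 0.68 (adjusted p = 0.023, limma), and in zFPKM without laboratory mouse 1 (0.0267), laboratory mouse 2 (0.0605) or wild mouse 1 (0.0805).

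The Ugt3 pair behaved unlike each other. Ugt3a1 stood at 14.1, 20.4 and 9.31 FPKM in the laboratory males and at 42.0, 53.6 and 60.7 in the wild animals. Ugt3a2 had 37.2, 41.6 and 23.8 against 99.1, 10.7 and 32.5. Ugt3a1 was higher in every wild mouse, whereas for Ugt3a2 the wild male was the highest and a wild female the lowest of all 6 mice. Ugt3a1 differed by 0.419 in zFPKM (standard error 0.152, adjusted p = 0.0432, limma), and the call was lost without laboratory mouse 1 or 3 or wild mouse 2 or 3 (adjusted p = 0.0609, 0.282, 0.273 and 0.346, with a difference of 0.192 without laboratory mouse 3). Ugt3a2 differed by -0.222 (standard error 0.145, adjusted p = 0.354, limma), with an adjusted p of 0.049 and a difference of -0.399 without laboratory mouse 3 and of -0.00408 without wild mouse 2. The ratio of Ugt3a2 to Ugt3a1 in FPKM, which does not depend on the scaling of a mouse, was 2.64, 2.04 and 2.55 in the laboratory males and 2.36 in the wild male, but 0.200 and 0.535 in the wild females. The 4 males lay together and both females apart from them, a description that rests on 2 females. A two-sided exact permutation test of log2(FPKM + 0.1) gave p = 0.1 for 8 of the 10 genes, the smallest p that 3 mice against 3 allow, and p = 1 for Ugt3a2.

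**Figure D3:**
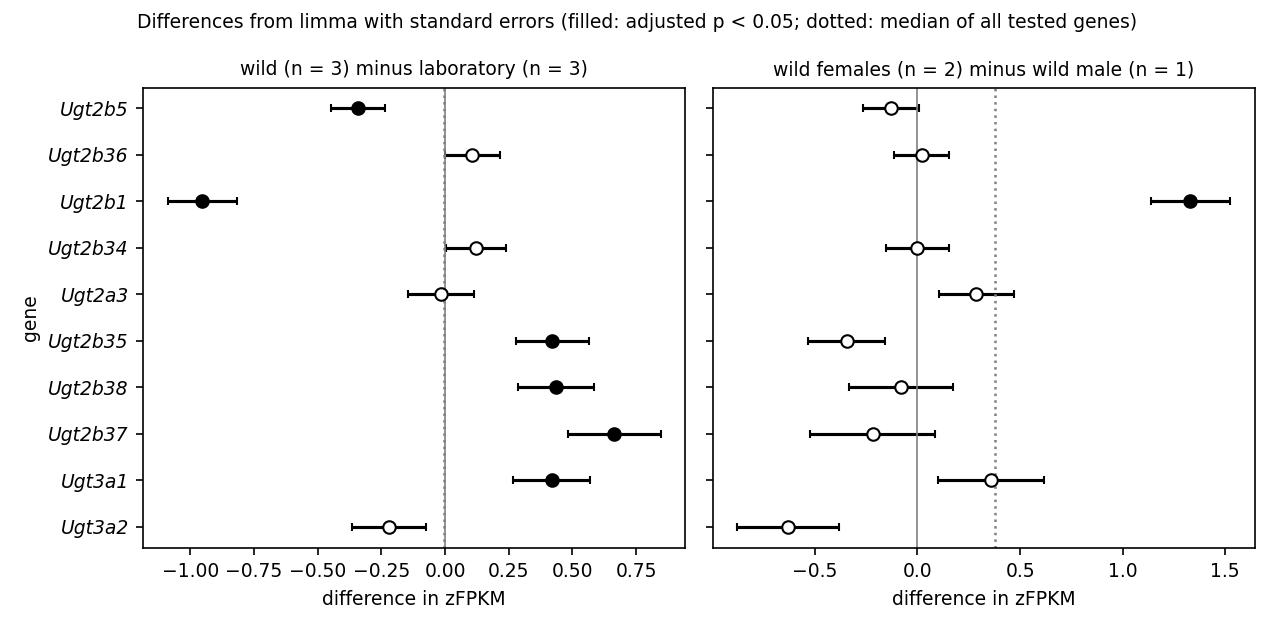
Differences in zFPKM with standard errors from limma for wild minus laboratory mice (left) and wild females minus the wild male (right), filled where the adjusted p is under 0.05, with a dotted line at the median of all tested genes. On the left Ugt2b1 and Ugt2b5 are filled below 0 and 4 genes above it, and on the right only Ugt2b1 is filled, at 1.33.

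The make-up of the Ugt2 transcripts was compared as the share of each gene in their summed FPKM, which cancels any factor common to all genes of a mouse. The sum was 909, 871 and 733 FPKM in the laboratory males (838 ± 92.3, SD, n = 3) and 1385, 1020 and 1095 in the wild animals (1167 ± 193, SD, n = 3), a ratio of 1.39. On the log2 scale this ratio was 0.48, beside a shift of 0.47 in the median tested gene. The rise in the sum was thus close to that of the typical gene. As a share of the FPKM of all genes, the log2 ratio of the sum was 0.68. Ugt2b5 made up 47.5%, 39.7% and 43.2% of the summed Ugt2 FPKM in the laboratory males and 29.3%, 23.5% and 25.6% in the wild animals. Every laboratory mouse was above every wild mouse for this share, also where the FPKM itself overlapped. Ugt2b1 took 12.8% ± 2.84 and 3.59% ± 2.70 (SD, n = 3 each), with 0.474% in the wild male. The shares of the other 5 Ugt2b genes were all higher in each wild mouse than in each laboratory mouse. Ugt2b36 went from 22.1% ± 2.41 to 32.9% ± 2.60, Ugt2b34 from 10.0% ± 0.572 to 15.2% ± 1.35 and Ugt2b35 from 2.40% ± 0.317 to 6.84% ± 3.24 (SD, n = 3 each). Ugt2b38 went from 1.88% ± 0.413 to 5.04% ± 0.818 and Ugt2b37 from 0.555% ± 0.152 to 2.37% ± 0.903 (SD, n = 3 each). Ugt2a3 overlapped, with 6.71% ± 1.15 and 7.91% ± 2.27 (SD, n = 3 each). Shares within a sum are tied to each other, so a lower share of Ugt2b5 raises the others, and they carry no test here.

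**Figure D4:**
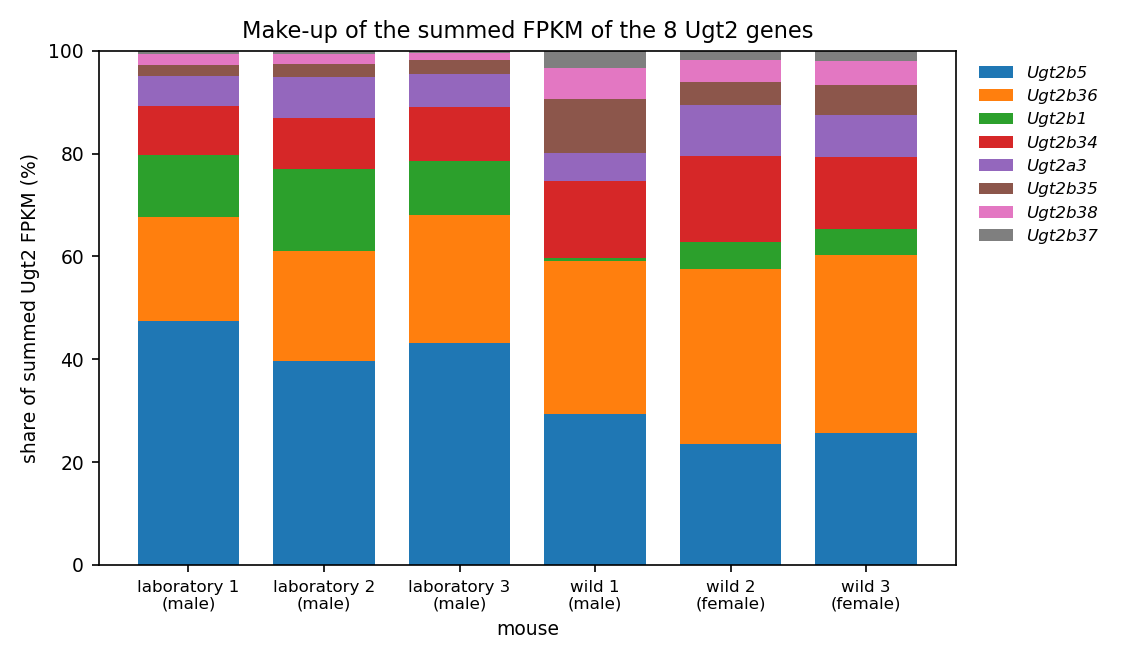
Share of each of the 8 Ugt2 genes in their summed FPKM, in percent, as 1 stacked bar per mouse. Ugt2b5 and Ugt2b36 together make up more than any other pair in each mouse, with Ugt2b5 the larger in the 3 laboratory mice and Ugt2b36 the larger in the 3 wild mice.

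Position in the cluster did not sort the genes by direction in FPKM. Ugt2b34 and Ugt2b1 are neighbours on the same strand, yet the FPKM of the first was higher and that of the second lower in the wild mice. Ugt2b5, whose groups overlapped in FPKM, lies between Ugt2b36 and Ugt2b37, both higher in FPKM in every wild mouse. That was also so for 43.7% of all tested genes. In zFPKM Ugt2b34 (0.121, adjusted p = 0.582, limma) and Ugt2b36 (0.107, adjusted p = 0.592, limma) did not pass.

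**Figure D5:**
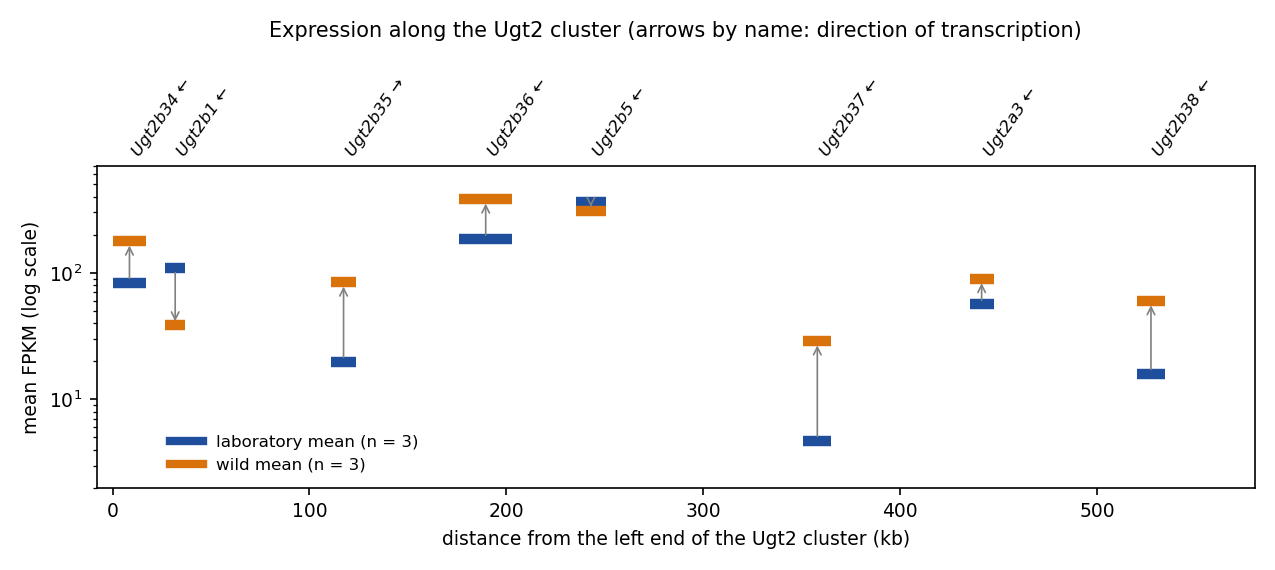
Mean FPKM (log axis) of the laboratory (blue) and wild (orange) mice, n = 3 each, along the Ugt2 cluster, with bars spanning each gene and vertical arrows from the laboratory to the wild mean. The arrows point down for Ugt2b1 and, by a short step, for Ugt2b5, and up for the 6 other genes.

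Sex and origin were partly separated in a limma fit of zFPKM with both terms, in which the sex term rests on 1 wild male and 2 wild females and the lone male is assumed to vary like the other mice. Ugt2b1 was the one member called, 1.33 higher in the wild females (standard error 0.193, adjusted p = 0.00609), and no member was called lower, where 0.376% of all genes were called, 0.317% higher and 0.0591% lower, and the median gene was 0.375 higher in the females. Its mean FPKM in the females was 8.27 times that of the male. Ugt3a2 was lower in the females by 0.63 in zFPKM (standard error 0.248, adjusted p = 0.389) and the male had 4.58 times their mean FPKM, a difference that did not pass. Ugt2b35 was at -0.346 (standard error 0.188, adjusted p = 0.499) and Ugt3a1 at 0.359 (standard error 0.257, adjusted p = 0.535). The other 6 members differed by less than 0.3 in either direction. Without laboratory mouse 3, which enters this fit through the spread alone, Ugt2a3, Ugt3a1, Ugt2b35, Ugt2b37 and Ugt3a2 also had an adjusted p under 0.05 (0.034, 0.0258, 0.029, 0.0479 and 0.0449), beside 30.2% of all genes called higher and 0.438% lower in that fit. With 1 wild male, what belongs to sex and what belongs to that mouse cannot be told apart.

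The origin term of that fit sets the wild male against the laboratory males. Ugt2b1 was lower by 1.84 in it (difference -1.84, standard error 0.182, adjusted p = 0.000233) and Ugt2b35 higher by 0.652 (standard error 0.177, adjusted p = 0.0427), beside 7.37% of all genes called, 6.03% lower and 1.34% higher, with a median gene at -0.275. In FPKM the laboratory mean was 16.5 times the level of the wild male for Ugt2b1, and the wild male had 7.32 times the laboratory mean for Ugt2b35. Ugt2b37 (0.811, standard error 0.288, adjusted p = 0.104) and Ugt2b38 (0.488, standard error 0.237, adjusted p = 0.239) did not pass, and no other member did. Ugt3a2 changed sign, at 0.198 (standard error 0.234, adjusted p = 0.658). Sex markers of the liver were measured beside these values. In the wild male 14 female-biased genes summed to 140 FPKM, above 3.20 to 6.63 in the laboratory males and below 7689 to 9523 in the wild females, with the steroid hydroxylase Cyp2a4, the highest by mean zFPKM over the 6 mice, at 36.3, 2.37 to 4.94 and 546 to 613. The 11 male-biased genes with an entry summed to 1071 FPKM in the wild male, 867 to 1282 in the laboratory males and 69.7 to 116 in the wild females. Cyp2d9, the highest of them by the same measure, had 655, 528 to 789 and 43.6 to 44.3, and so made up most of the sum in the wild male. Single genes of the list departed from the sum in both directions. In the same order Hsd3b5 had 4.21, 60.3 to 104 and 0.124 to 0.148, and Slco1a1 had 135, 32.4 to 38.5 and 2.65 to 39.5. The part of these patterns in the values of Ugt2b1 was not tested.

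Genes around glucuronidation were counted by role in the same comparison of wild and laboratory mice. A list drawn up for UDP-glucuronate supply held 7 tested genes, Pgm1, Ugp2, Ugdh, Slc35d1, Slc35b1, Uxs1 and Nudt14, which do not all make or carry it. Of these 7, 0 were higher and 1 was lower, the endoplasmic reticulum carrier Slc35d1 (difference in zFPKM -0.491, adjusted p = 0.026, limma). Their summed FPKM was nevertheless 149 to 163 in laboratory and 324 to 381 in wild mice. Of 7 tested Ugt1 genes, the sister family to which the bilirubin enzyme Ugt1a1 belongs, 5 were higher and 1 was lower. Ugt1a1 was at 4.79, 5.91 and 4.48 FPKM in the laboratory males and at 205, 343 and 283 in the wild animals (difference in zFPKM 1.75, standard error 0.143, adjusted p = 3.75e-31, limma). Ugt1a9 (2.21), Ugt1a5 (2.01), Ugt1a2 (1.12) and Ugt1a6a (0.86) were also higher in zFPKM, with Ugt1a9 at 0.663 to 1.36 FPKM in laboratory and 61.7 to 188 in wild mice. Ugt1a6b was lower by 0.438 in zFPKM (adjusted p = 0.0049), with 105 to 126 FPKM against 73.9 to 89.5. Ugt1a7c stayed at or below 0.138 FPKM and did not pass, Ugt1a10 reached 2.65 in a wild female without passing the filter, and Ugt1a8 was not among the entries used. Transcripts of the Ugt1 locus share their last exons, so how reads were split among these names is uncertain, while their sum was 112 to 135 FPKM in laboratory and 501 to 594 in wild mice.

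Of 7 carriers of glucuronides and other anions, 5 were higher in zFPKM and 0 lower. They were the export pumps Abcc4 (1.51), Abcc2 (0.60) and Abcc3 (0.47) and the uptake carriers Slco1a4 (0.72) and Slco1b2 (0.52), with Abcc2 at 5.79 to 9.14 FPKM in laboratory and 30.8 to 49.8 in wild mice. Among 8 genes that hydrolyse glucuronides or use glucuronate, Gulo, which makes the last step to vitamin C in mice, was higher (difference in zFPKM 0.828, adjusted p = 2.43e-09, limma) and the xylulose kinase Xylb was lower (-0.627, adjusted p = 0.00018). Of 15 regulators of UGT genes, the female-biased repressor Cux2 was higher (1.31), with 6.10 and 7.79 FPKM in the wild females but 0.0808 in the wild male and 0.0499 to 0.0903 in the laboratory males, and an origin difference of -0.485 with sex in the fit (adjusted p = 0.558, limma). Bcl6, a repressor with more expression in male liver (-0.60), and the bile acid receptor Nr1h4 (-0.51) were lower. Bcl6 was lowest in the wild male, at 2.03 FPKM, with 7.09 and 13.3 in the wild females and 8.60 to 15.1 in the laboratory males. Its origin difference with sex in the fit was -1.36. None of 3 tested genes among other UDP-glycosyltransferases passed. The olfactory Ugt2a1 and Ugt2a2 were at or below 0.0208 FPKM in every mouse. The median difference in zFPKM was 1.12 for the Ugt1 genes, 0.522 for the carriers, 0.219 for the list of UDP-glucuronate supply, 0.127 for glucuronide use and 0.0229 for the regulators, beside 0.114 for the Ugt2 genes and -0.00488 for all tested genes. In all 12 of these pathway genes were higher and 5 lower, against 27 and 4 on log2(FPKM + 0.1) and 17 and 6 with each mouse's median set to 0 on that scale, beside the shares of all genes given for the members (7.28% and 7.17%, 38.0% and 8.19%, and 18.6% and 28.6%). With sex in the fit, where the origin term rests on 1 wild male, the median difference was 0.755 for the Ugt1 genes and 0.321 for the carriers. It was 0.0628 for the list of UDP-glucuronate supply, 0.0805 for glucuronide use, -0.142 for other UDP-glycosyltransferases and -0.266 for the regulators, beside -0.275 for all tested genes.

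Across the 6 mice the log2(FPKM + 0.1) of the members was compared pair by pair, as a description that the group means largely set. Pearson's r was highest for Ugt2b37 with Ugt2b38 (0.989) and Ugt2b34 with Ugt2b36 (0.981) and lowest for Ugt2b1 with Ugt2b35 (-0.924), with n = 6 mice. The first pair shares near-identical sequence, and the second shares no 100-base window. Ugt3a1 followed Ugt2a3 (0.961) rather than Ugt3a2 (-0.0327), and Ugt2b5 was nearest to Ugt3a2 (0.797). For each member the tested genes with the smallest root mean square distance in log2 FPKM over the 6 mice, each profile centred on its mean, were also found. None was another member. Ugt2b34 was nearest to Mvb12a (0.0388) and Utp4 (0.0493), Ugt2b36 to Smim9 (0.039), which is listed at 0 in the laboratory mice, and Cdv3 (0.0488), Ugt2a3 to Mospd1 (0.0653) and Sap30bp (0.0759), and Ugt2b5 to Gtpbp10 (0.0915) and Rps19bp1 (0.0973). Ugt2b35 was nearest to the interferon-induced Ifi27 (0.125) and LOC115487110 (0.193), Ugt2b38 to Gm35570 (0.159) and Rab11b-ps1 (0.176), and Ugt2b37 to LOC115489919 (0.225) and Rps26-ps1 (0.236). LOC115487110, Gm35570 and LOC115489919 had laboratory means of 0.0109, 0.0821 and 0.134 FPKM. At such levels, as for Smim9, the added 0.1 weighs on the distance. Ugt3a1 was nearest to LOC115489679 (0.156) and the cholesterol ester hydrolase Nceh1 (0.162), and Ugt3a2 to Nox4 (0.207) and Trim30d (0.338). Ugt2b1 had the least close neighbours, Snhg10 (0.27) and Ube2u (0.352), against a spread of 1.43 of its own profile, and both had a mean below 3 FPKM in either group.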

How the data were processed

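RNA-Seq of 6 livers was analysed, 3 from laboratory and 3 from wild mice, grouped by the labels. The authors aligned reads to masked GRCm38 (p6, per the labels) by kalign, ran the Tuxedo pipeline and deposited its FPKM per gene. The zFPKM beside it is a score, computed by the authors with the R package of that name from a mode and an SD of each mouse. Because no counts were used, the edgeR test of the study was not repeated. Depth is unknown, so no limit of detection is given. Bounds on FPKM came with 5 of the 6 mice, with half-widths of 1.54% to 20.5% of the FPKM of the members. They were not used in the tests. In the limma fit of wild against laboratory zFPKM the standard errors follow a variance trend over all genes. They do not measure the spread of each gene between the 3 mice of a group. Nothing labels replicates beyond 1 library per mouse.

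Of 47256 gene names, 13 marked as failed in a mouse were dropped. Genes with zFPKM above -3 in at least 3 mice were tested, lower values being set to -3, with limma 3.58.1 in R 4.3.3 (lmFit, eBayes with trend, Benjamini-Hochberg). Single genes had a two-sided exact permutation test. Named genes were all members, pathway genes called (up to 5 a list) and all Ugt1 genes, the gene of each sex-biased list with the highest mean zFPKM, and 2 nearest profiles per member. Members and lists were chosen with earlier results of these data known. Procedures were tested on simulated data. GENCODE M21 transcripts and RefSeq GRCm38.p6 promoters were used in Python 3.11.15 (Biopython 1.88). Some planned promoter sequences are not reported here. Starts were converted to count from 1. Alternatives were other scales, floors, filters, covariates, males only and leaving out each mouse.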

Additional observations from a re-analysis of the deposited data

How the results depend on the processing

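Over 330 alternative values of single members, 243 kept their direction and their side of the threshold, 57 kept direction but no longer passed, 12 newly passed and 18 turned. Ugt2b1 kept its direction in all 18 alternatives for origin and its call in 12, with adjusted p from 1.92e-10 to 0.45. No paired analysis was possible because the laboratory and wild mice were different animals with nothing to match them. Depth is unknown, and 3 mice against 3, with 1 wild male, limit every call. The causes of the changes below were not tested, and males only and leaving 1 out also meant fewer mice. The median of 0 on log2(FPKM + 0.1) was chosen after seeing the data.

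Against 4 members higher and 2 lower in wild mice, log2(FPKM + 1), log2(FPKM + 0.1) and one mode and SD for all mice each gave 7 and 0, no filter, no variance trend and males only each gave 0 and 0, a floor of -5 gave 0 higher, a median of 0 in each mouse gave 2 and 1, and sex as a covariate gave 1 and 1. Leaving out 1 mouse gave 1 to 2 higher and 1 to 3 lower. Of all genes, 36.9% were higher and 7.44% lower on log2(FPKM + 1), 38.0% and 8.19% on log2(FPKM + 0.1), 37.9% and 7.98% with one mode and SD, 20.4% and 18.7% with quantile normalization, 13.9% and 14.4% with a median of 0 in each mouse, 5.33% higher with a floor of -5, 1.89% and 2.38% without a variance trend, 1.34% and 6.03% with sex as a covariate, 0.0169% and 0.0318% without a filter, and 0 with males only, and leaving out 1 mouse gave 2.75% to 9.10% higher and 3.09% to 10.6% lower. Against 12 pathway genes higher and 5 lower, log2(FPKM + 1) gave 26 and 3, log2(FPKM + 0.1) 27 higher, one mode and SD 27 and 3, quantile normalization 19 higher, sex as a covariate 5 higher, no variance trend 3 and 0, and no filter and males only 0 and 0. Leaving out 1 mouse gave 6 to 12 higher and 2 to 8 lower, with the fewest higher without wild mouse 3 and the most lower without laboratory mouse 3. Between wild females and the wild male, 1 member was higher and 0 lower in limma, while a floor of -5, no filter and no variance trend gave 0 higher, and leaving out 1 mouse gave 1 to 3 higher and 0 to 3 lower, both highest without laboratory mouse 3, where 30.2% of all genes were higher and 0.438% lower. The log2 ratio of summed Ugt2 FPKM, 0.48, was 0.68 as a share of the FPKM of all genes.

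For wild minus laboratory, Ugt2a3 was at 0.67 on log2(FPKM + 1), 0.68 on log2(FPKM + 0.1), 0.235 with one mode and SD, and between -0.132 and 0.0805 when 1 mouse was left out, above 0 without laboratory mouse 1 (0.0267), laboratory mouse 2 (0.0605) or wild mouse 1. Ugt3a2 was at 0.198 with sex as a covariate and with males only. For wild females minus the male, Ugt2b36 was at -0.19 on both log2 scales, -0.0792 with quantile normalization, -0.452 with a median of 0 in each mouse, -0.0654 with one mode and SD, -0.41 on log2(FPKM + 0.1) with a median of 0, and -0.0156 to 0.0564 when 1 mouse was left out, lowest without wild mouse 3. Ugt2b34 ran from -0.0258 to 0.0257 when 1 mouse was left out, highest without wild mouse 3, and with a median of 0 in each mouse Ugt2a3 was at -0.187 and Ugt3a1 at -0.113.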
